A study of Mus musculus with 28 samples.

Results

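The genes described here encode enzymes that make, convert or inactivate steroids, grouped around Cyp17a1. They were named as a list of 7 symbols (Cyp17a1, Hsd3b5, Hsd3b3, Srd5a1, Akr1c6, Akr1d1 and Hsd11b1), chosen by their role and by levels over these arrays that were already known; which contrast decided is not recorded, so every level and every contrast of theirs below is a description and supports nothing by itself. A gene was measured where a probe set of the array named it and no other gene, which held for 6 of the 7, out of 18820 genes measured in that way. Srd5a1, the reductase that makes dihydrotestosterone from testosterone, has no such probe set and was not analysed here. Of the 6 measured genes each had 1 such probe set. None was filtered on its level.

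Liver RNA of 28 male C57BL/6J mice was hybridised to whole-transcript arrays, with 1 array for each mouse. The switched group (n = 8) ate a moderate-fat food, with 25% of its energy as fat, without restriction until 12 months of age and then followed an intermittent diet until sampling at 24 months. The lifelong groups had the intermittent diet from 9 weeks of age, and 6 of these mice were sampled when 6 months old, 7 when 12 months old and 7 when 24 months old. A cycle of that diet was a week of the moderate-fat food, freely given, and a week on 60% of the energy eaten by mice on a control food. Mice of every group, housed singly, fasted for 4 h, then received carboxymethyl cellulose into the stomach and fasted for another 6 h, and RNA was used where its integrity number was above 8.0. Whether a mouse was sampled in a free or a restricted week is not given, and no group fed the moderate-fat or the control food throughout was analysed here. Values are log2 expression after RMA, a method that corrects background, equalises the arrays and summarises the probes of a probe set, so a difference of 1 is a doubling on this scale.

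CYP17A1 hydroxylates progestogens and cleaves their side chain, which opens the way to androgens. The enzyme is best known from testis and adrenal gland, where HSD3B enzymes act beside it, while the liver mainly reduces, oxidises and hydroxylates circulating steroids and builds bile acids from cholesterol. In mouse liver many of these enzymes are present at unequal levels in males and females, a pattern known to follow the timing of growth hormone pulses. HSD3B5 is a reductase of keto-steroids known from the liver of male mice, and HSD3B3 is a relative that oxidises steroids in liver and kidney. AKR1C6 reduces the keto group of androgen and estrogen precursors. AKR1D1 reduces the double bond of steroid hormones and of bile acid intermediates, and HSD11B1 regenerates active glucocorticoid, corticosterone in mice.

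Cyp17a1 lies on chromosome 19 (46667165 to 46673000, GRCm38.p6), Akr1c6 on chromosome 13 (4434311 to 4457530), Akr1d1 on chromosome 6 (37529978 to 37574921) and Hsd11b1 on chromosome 1 (193221640 to 193264045). Hsd3b5 (98618636 to 98645534) and Hsd3b3 (98741476 to 98764540) lie on chromosome 3 in a row of related genes, with Hsd3b2 between them. The sequence upstream of these neighbours is shown because the genes are close relatives whose levels parted in the switched livers, as described below. Both are 250 bases before the start of the transcript, from RefSeq on GRCm38.p6, read 5′ to 3′ on the minus strand, at chr3:98645535-98645784 for Hsd3b5 and chr3:98763129-98763378 for the first of a pair of starts of Hsd3b3. Capitals mark the stretch over which a local alignment paired them.
Hsd3b5: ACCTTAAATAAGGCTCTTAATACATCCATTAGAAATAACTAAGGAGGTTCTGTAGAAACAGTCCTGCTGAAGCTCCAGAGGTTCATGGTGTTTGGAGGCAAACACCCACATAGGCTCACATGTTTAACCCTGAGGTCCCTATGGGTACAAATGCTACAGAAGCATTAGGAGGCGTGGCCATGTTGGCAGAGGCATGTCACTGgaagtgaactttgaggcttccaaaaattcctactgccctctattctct
Hsd3b3: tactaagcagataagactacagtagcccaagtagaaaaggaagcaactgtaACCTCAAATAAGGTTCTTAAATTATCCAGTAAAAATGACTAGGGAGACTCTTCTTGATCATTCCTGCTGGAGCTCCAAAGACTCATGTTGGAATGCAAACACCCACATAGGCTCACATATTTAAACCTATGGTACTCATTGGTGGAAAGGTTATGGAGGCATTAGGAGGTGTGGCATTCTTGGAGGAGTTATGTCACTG
The aligned stretch spans 202 columns, of which 74.8% are identical and 3 hold a gap. It starts at the first base shown for Hsd3b5 and reaches the last base shown for Hsd3b3.

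The promoter windows available for the group, 7 windows of Hsd3b5, Hsd3b3, Akr1c6, Akr1d1, Hsd11b1 and Srd5a1, were searched on both strands for the letters of a few known motifs. Hsd3b3 has a pair of these windows, which are nearly the same sequence offset by a base, and Cyp17a1 has no window in the table and was not searched. TTCNNNGAA, bound by STAT5, was in none of them and in 7.02% of the 32851 windows of all genes. The palindromic element of the glucocorticoid and androgen receptors, AGAACA and its reverse complement with 3 free bases between them, was in none and in 0.00913% of all windows, and AGAACA alone, which also counts each full element, was in none and in 16.1%. CAAAGTCCA, bound by HNF4A, was in none and in 0.384%. These counts cover the letters in these windows only.

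The livers were checked against markers of hepatocytes and of steroid-making glands before the enzymes were compared. The mean level of 9 hepatocyte markers was 13.07 ± 0.03 in switched livers, 13.11 ± 0.03 at 6 months, 13.09 ± 0.03 at 12 months and 13.07 ± 0.06 at 24 months (SD over livers), and 0 of 9 passed in any comparison by limma, with 4 at an unadjusted p under 0.05 in switched against 6-month livers, 1 in 24 against 6 months and 0 in the other comparisons. The cholesterol side-chain cleavage enzyme gene Cyp11a1, needed by adrenal and Leydig cells, lay between 2.81 and 3.51 over all livers, with a median percentile of 15.6 on its array. The corticotropin receptor gene Mc2r had a median of 2.51 and the testis gene Hsd17b3 one of 2.90. Other markers of these lists were brighter. The highest was Cyp21a1, the steroid 21-hydroxylase gene, with a median of 6.56 (5.70 to 7.54 over all livers) and a median percentile of 65.6, and Star, which encodes the carrier of cholesterol into mitochondria, had a median of 4.80 and a percentile of 43.1. The adrenal list (7 measured) averaged 4.27 in switched livers, 4.25 at 6 months, 4.31 at 12 months and 4.34 at 24 months. The Leydig list (6 measured) averaged 3.92, 3.96, 3.95 and 3.92 in the same order. In limma 0 markers of either list passed in any comparison, with at most 1 of a list at an unadjusted p under 0.05.

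The 6 measured genes divided by direction and by group. In switched against 6-month livers 3 rose (Cyp17a1, Akr1d1 and Hsd11b1) and 2 fell (Hsd3b5 and Akr1c6), where 4.66% of all probe sets rose and 5.39% fell. With age on the lifelong diet the 1 that passed was Cyp17a1. In 24 against 6 months 1 of the 6 rose and 0 fell, where 2.10% of all probe sets rose and 2.63% fell, and in 12 against 6 months 1 rose and 0 fell, where 0.363% rose and 0.228% fell. None of the 6 passed in 24 against 12 months, where 0.0253% of all probe sets did, or in switched against lifelong livers at 24 months, where 0.0197% did. Passing means an adjusted p under 0.05 in limma over all 35556 probe sets of a comparison. Because the genes were chosen with these contrasts known, nothing is read from these counts. In switched against 6-month livers 3 of the 6 did not overlap between the groups (2.76% of all probe sets), and in 24 against 6 months 1 did not (1.69%). The median of the 6 differences was 0.01 in switched against 6-month livers, beside −0.03 over all probe sets, and 0.01 in 24 against 6 months, beside −0.02. All comparisons with 6-month livers share those livers.

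Cyp17a1 rose in every comparison with 6-month livers. Its lowest, median and highest values were 11.66, 11.97 and 12.00 in switched livers, 8.71, 9.43 and 10.15 at 6 months, and 9.46, 10.59 and 11.51 at 12 months. At 24 months on the lifelong diet they were 10.44, 11.72 and 11.95. The 8 switched livers lay within 0.34 of each other, whereas the lifelong groups spread over 1.44, 2.06 and 1.51 from 6 to 24 months. No switched or 24-month liver overlapped the 6-month livers, and 6 of the 7 livers at 12 months lay above all of them. In whole liver, a change in the number of cells of a type and a change in RNA per cell cannot be told apart.

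In the fit over all arrays the Cyp17a1 difference was 1.25 (SE 0.24) for 12 against 6 months and 2.11 (SE 0.24) for 24 against 6 months, and both passed. The difference of 0.86 (SE 0.23) for 24 against 12 months did not pass. Switched against lifelong livers at 24 months differed by 0.37 (SE 0.22), which did not pass either (limma, adjusted p = 0.755). Ordered by level, the groups ran from 6 months through 12 and 24 months to the switched group, and neighbours from 12 months upward were not separated. The switched livers were 2.48 (SE 0.23) above the 6-month livers, which serve in the 24 against 6 month difference as well. Within the 3 array batches the 24 against 6 month difference was 2.14, 1.03 and 2.84, and the 12 against 6 month difference 1.36, 0.67 and 1.54. The first batch held 4 livers of each of these groups, and the others held 1 or 2. Leaving out each liver in turn kept the 24 against 6 month call in 13 of 13 fits and the 12 against 6 month call in 6 of 13. The livers without which the 12-month call was lost were replicates 2, 3, 4 and 6 at 6 months and replicates 3, 4 and 5 at 12 months.

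**Figure D1:**
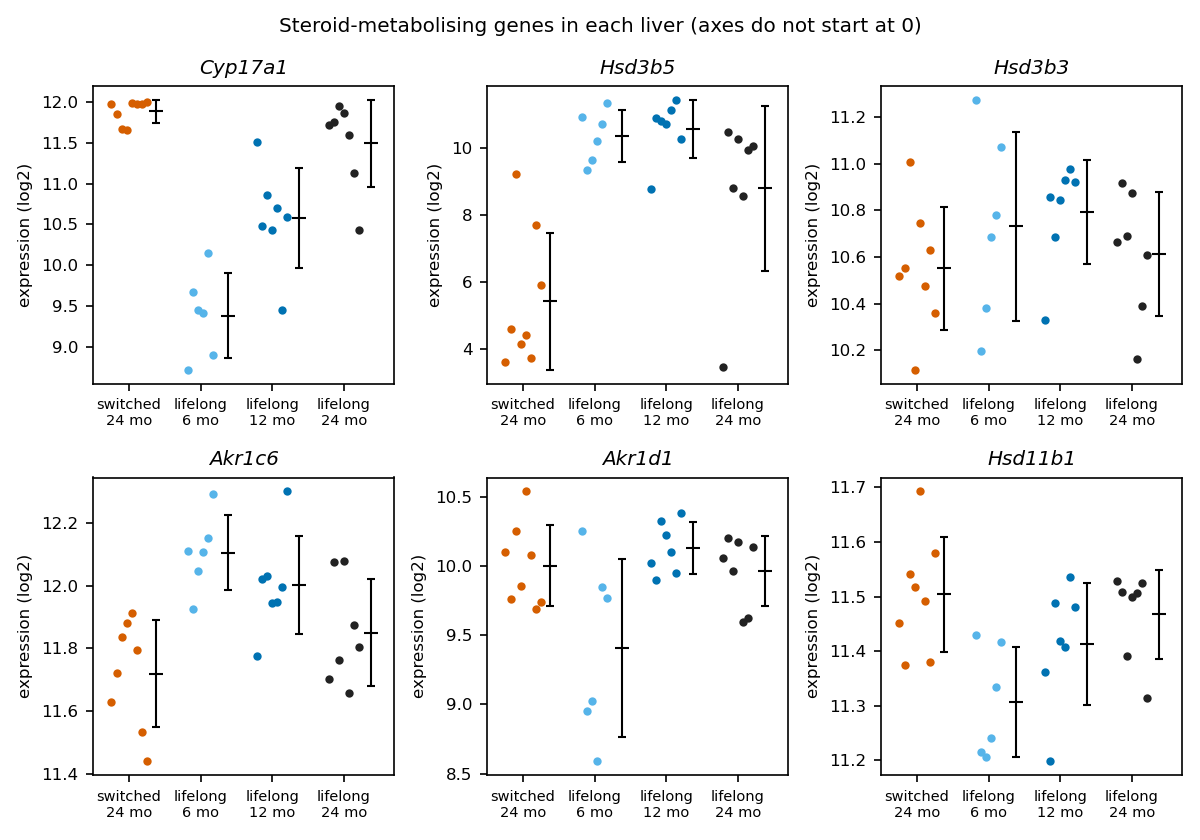
Expression (log2) of the 6 measured genes in each of the 28 livers, a panel for each gene with its own scale. Points are livers in order of replicate number and bars are the group mean with the SD. Cyp17a1 lay between 11.66 and 12.00 in all 8 switched livers, and Hsd3b5 lay below 5 in 5 of them and in 1 lifelong liver at 24 months.

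Hsd3b5 was lower in switched livers, and unevenly so between mice. In switched livers its lowest, median and highest values were 3.61, 4.49 and 9.22, against 3.44, 9.95 and 10.50 in lifelong livers at 24 months. The lifelong livers ran at 9.35, 10.47 and 11.36 at 6 months and at 8.76, 10.80 and 11.43 at 12 months. In 5 of 8 switched livers and in 1 of 7 lifelong livers at 24 months Hsd3b5 was below the median of its own array, and in none of the younger livers. In these 6 livers Hsd3b5 stood at the 20.4th to 39.7th percentile of their arrays, where array values are known to flatten out, so differences measured against them may be too small.

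Against the same-aged lifelong livers the switched livers differed in Hsd3b5 by −3.47 (SE 0.90), which did not pass (limma, adjusted p = 0.247). Of the 7 lifelong livers at 24 months, replicate 1 had 3.44 and the other 6 had 8.57 to 10.50. Without replicate 1 the difference was −4.25 (SE 0.69) and passed, and this was the one fit with a liver left out in which any of the 6 genes passed in that comparison. In the batches the difference was −3.78 (6 switched against 4 lifelong livers), −6.44 (1 against 1) and −1.05 (1 against 2). Replicate 1 belonged to the batch with the smallest difference. Against 6-month livers the switched livers were at −4.97 (SE 0.93), a call kept in 14 of 14 fits that left out a liver, and the 8 switched livers all lay below the 6-month livers. The 24 against 6 month difference was −1.51 (SE 0.96) and the 24 against 12 month difference −1.70 (SE 0.93). Without replicate 1 these were −0.67 and −0.89. The 12 against 6 month difference was 0.19 (SE 0.96). None of the 3 age differences passed. The fit gives all groups 1 spread, while the SD of Hsd3b5 was 2.05 in switched livers, 0.78 at 6 months, 0.88 at 12 months and 2.48 at 24 months.

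Hsd3b3, the neighbour with the similar upstream sequence, passed in no comparison. Its lowest, median and highest values were 10.12, 10.53 and 11.01 in switched livers, 10.20, 10.73 and 11.27 at 6 months, and 10.33, 10.86 and 10.98 at 12 months. In lifelong livers at 24 months they were 10.16, 10.67 and 10.92. All groups overlapped. Its differences were −0.04 (SE 0.15) for switched against lifelong livers at 24 months (limma, adjusted p = 0.982), −0.17 (SE 0.15) for switched against 6-month livers and −0.13 (SE 0.16) for 24 against 6 months. The other relatives with a probe set of their own, Hsd3b1, Hsd3b2, Hsd3b6 and Hsd3b7, gave 0 calls of 4 in all 5 comparisons by limma, with 1 of 4 at an unadjusted p under 0.05 in 12 against 6 months and in 24 against 6 months and none in the other comparisons. Hsd3b2, which lies between the neighbours, had a difference of −0.32 (SE 0.18, adjusted p = 0.736) for switched against lifelong livers at 24 months. Hsd3b5 is also named by 2 further probe sets together with Gm10681 and Hsd3b4. These were not used, and how far such close copies share probes was not tested.

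**Figure D2:**
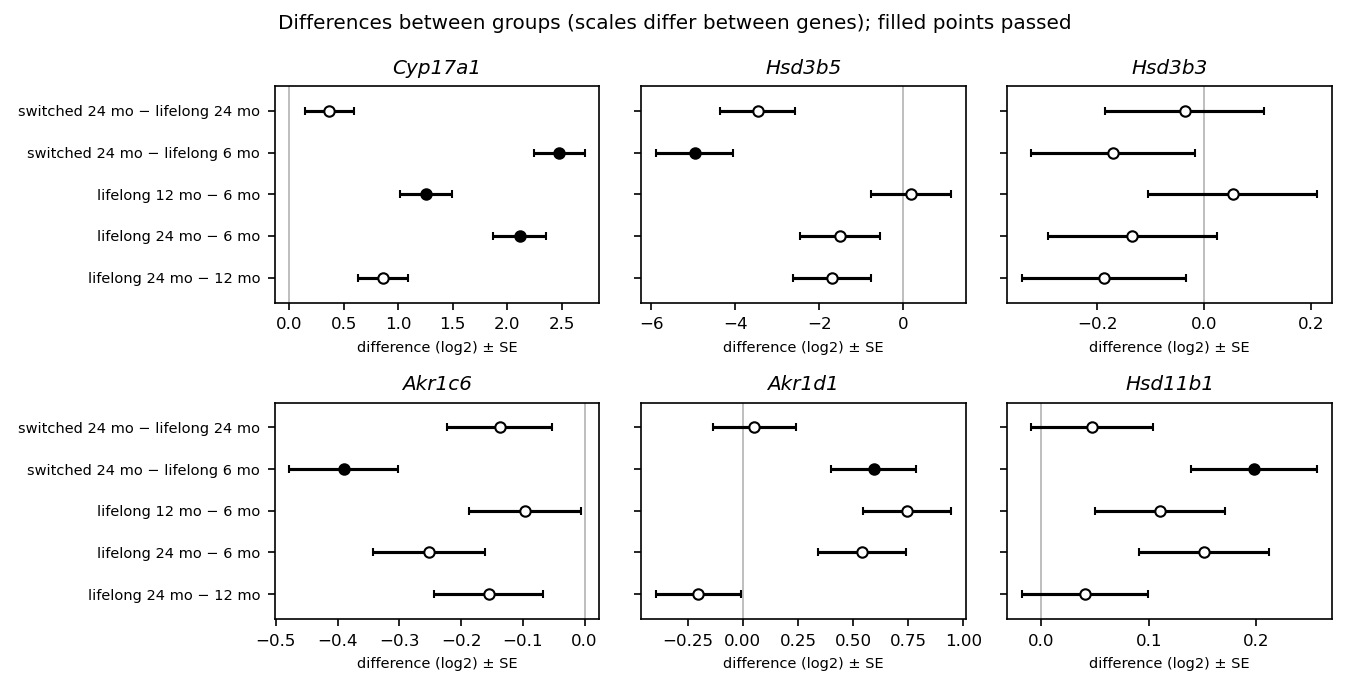
Differences between groups on the log2 scale, a panel for each gene with its own scale. Points are the fitted differences with their SE, filled where they passed the threshold over all probe sets. Hsd3b5 reached −4.97 in switched against 6-month livers, while Hsd3b3 differences lay between −0.19 and 0.05.

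Akr1c6 was lower in switched livers than in 6-month livers by a small step. Its lowest, median and highest values were 11.44, 11.76 and 11.91 in switched livers, 11.93, 12.11 and 12.29 at 6 months, and 11.78, 11.99 and 12.30 at 12 months. The lifelong livers at 24 months had 11.66, 11.80 and 12.08. The switched livers did not overlap the 6-month livers, and the difference of −0.39 (SE 0.09) passed, with and without each liver. The differences of −0.25 (SE 0.09) for 24 against 6 months, −0.10 (SE 0.09) for 12 against 6 months, −0.16 (SE 0.09) for 24 against 12 months and −0.14 (SE 0.09, limma adjusted p = 0.756) for switched against lifelong livers at 24 months did not pass. Among 8 measured relatives and steroid reductases, Srd5a3 and the AKR1C genes, 0 passed in any comparison by limma, with 2, 0, 0, 2 and 1 at an unadjusted p under 0.05 for 12 against 6 months, 24 against 6 months, 24 against 12 months, switched against lifelong at 24 months and switched against 6 months. Among them Akr1c18 differed by 0.48 (SE 0.17, adjusted p = 0.0788) in switched against 6-month livers, and Akr1c12 by 0.27 (SE 0.09, adjusted p = 0.184) in 12 against 6 months.

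Akr1d1 differed among the 6-month livers more than in any other group. Its values there ran from 8.59 through a median of 9.40 to 10.25, with replicates 2, 3 and 4 at 8.95, 9.03 and 8.59 and the other 3 livers at 9.77 to 10.25. The lowest, median and highest values were 9.69, 9.97 and 10.54 in switched livers, 9.90, 10.10 and 10.38 at 12 months, and 9.59, 10.06 and 10.20 at 24 months, so these groups overlapped the upper 3 of the 6-month livers. The switched against 6 month difference of 0.59 (SE 0.19) passed narrowly and held in 5 of 14 fits that left out a liver. In the 3 batches it was 0.51 (6 against 4 livers), 1.51 (1 against 1) and −0.03 (1 against 1). The differences of 0.74 (SE 0.20) for 12 against 6 months and 0.54 (SE 0.20) for 24 against 6 months did not pass, though they passed in 2 of 13 and 1 of 13 fits that left out a liver. Switched and lifelong livers at 24 months differed by 0.05 (SE 0.19, limma adjusted p = 0.980), and 24 against 12 months by −0.20 (SE 0.19).

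Hsd11b1 held a narrow range. Its lowest, median and highest values were 11.38, 11.50 and 11.69 in switched livers, 11.21, 11.29 and 11.43 at 6 months, and 11.20, 11.42 and 11.54 at 12 months. The values of lifelong livers at 24 months were 11.31, 11.51 and 11.53. Switched livers were 0.20 (SE 0.06) above 6-month livers, a difference that passed and that held in 9 of 14 fits without a liver, with 6 of the 8 switched livers above all 6-month livers. The other differences, 0.11 (SE 0.06) for 12 against 6 months, 0.15 (SE 0.06) for 24 against 6 months, 0.04 (SE 0.06) for 24 against 12 months and 0.05 (SE 0.06, limma adjusted p = 0.909) for switched against lifelong livers at 24 months, did not pass.

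Each liver's Cyp17a1 and Hsd3b5 were set side by side. At or above 11.66 of Cyp17a1, where all 8 switched livers lay, Hsd3b5 ran from 3.61 to 9.22 in those livers. Lifelong replicates 2, 3 and 4 at 24 months, with Cyp17a1 of 11.76, 11.95 and 11.86, had Hsd3b5 of 10.50, 8.82 and 10.28, while replicate 1, with Cyp17a1 of 11.72, had 3.44. High Cyp17a1 thus occurred with both high and low Hsd3b5. Within the groups, 20 relations of Cyp17a1 with another of the 6 genes were computed, none passed after Benjamini-Hochberg adjustment (lowest adjusted p = 0.552, exact permutation test, two-sided) and 1 had an unadjusted p under 0.05. That was Hsd3b3 at 12 months, with Pearson's r of −0.81 (n = 7, exact permutation p = 0.0456, adjusted 0.552) and Spearman's rho of −0.64 (exact permutation p = 0.139), and r was −0.52 without the 2 livers farthest from the Cyp17a1 median.

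**Figure D3:**
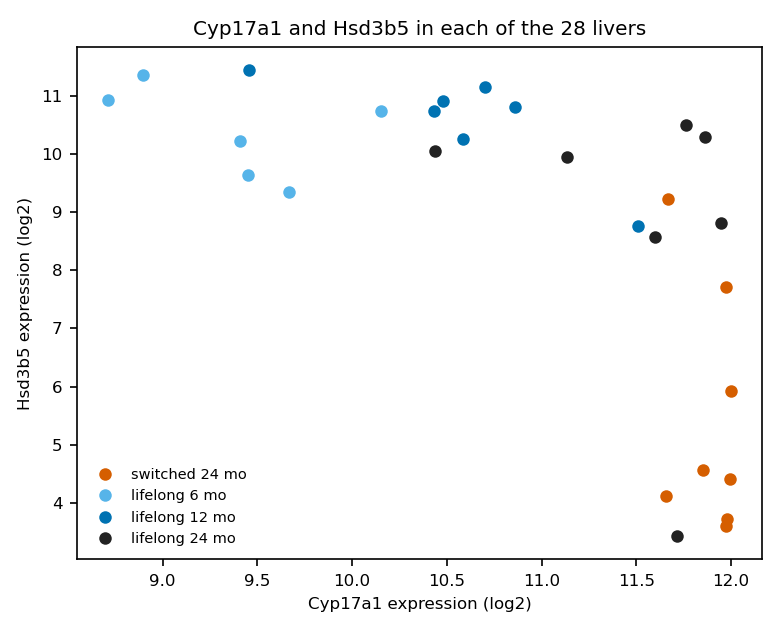
Hsd3b5 (y axis, log2) against Cyp17a1 (x axis, log2), each point a liver, coloured by group. The 8 switched livers stand at 11.66 to 12.00 of Cyp17a1 and spread from 3.61 to 9.22 of Hsd3b5. The 6-month livers stand at 8.71 to 10.15 of Cyp17a1 and 9.35 to 11.36 of Hsd3b5.

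The measured partners and neighbours of CYP17A1 in steroid synthesis were counted list by list. Of 9 genes before and after it (Star, the CYP11 genes, Cyp21a1 and hydroxysteroid dehydrogenases), 0 rose and 2 fell in switched against 6-month livers, 0 rose and 1 fell in 24 against 6 months, and none passed in the other 3 comparisons, where 1, 1 and 2 had an unadjusted p under 0.05 (12 against 6, 24 against 12 months and switched against lifelong at 24 months). Over all probe sets 4.66% rose and 5.39% fell in switched against 6-month livers, and 2.10% rose and 2.63% fell in 24 against 6 months. In switched against lifelong livers at 24 months 0.0197% passed. These shares belong beside the counts of the lists that follow as well. All lists were chosen with earlier results of these data known, so their counts are a description only. Both genes of this list that fell, Hsd17b6 and Hsd17b2, encode oxidising enzymes of sex steroids. Hsd17b6 averaged 11.36 in switched livers, and 12.07 at 6 months, 11.35 at 12 months and 10.83 at 24 months on the lifelong diet. It fell by 1.22 on the log2 scale (SE 0.18, limma adjusted p = 0.000637) in 24 against 6 months and by 0.72 (SE 0.18, adjusted p = 0.00968) in switched against 6-month livers. Hsd17b2 fell by 0.40 (SE 0.13, adjusted p = 0.0439) in switched against 6-month livers.

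Of 7 listed partners of cytochromes P450, microsomal and mitochondrial, 5 were measured, and Por and Fdxr, the reductases of the microsomal and the mitochondrial P450 systems, were not analysed here. Cyb5b, the cytochrome b5 of the outer mitochondrial membrane, rose by 0.39 (SE 0.10, limma adjusted p = 0.0106) and Cyb5r3, its reductase, by 0.22 (SE 0.06, adjusted p = 0.0302) in switched against 6-month livers. None of the 5 passed in the other comparisons. Their median difference was −0.06 in switched against 6-month livers, with 2 passing as higher and 0 as lower. Only 2 of the 5 differences were positive there. By limma 3 of the 5 had an unadjusted p under 0.05 in that comparison and 3 in 24 against 6 months. In 12 against 6 months 2 had one, in 24 against 12 months 1, and in switched against lifelong livers at 24 months 0.

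Hydroxylases that act on androgens, oxysterols and other steroids, listed with their relative Cyp2a5, changed in both directions. In switched against 6-month livers 2 of 5 rose and 2 fell. Cyp2a5 rose by 0.81 (SE 0.19, limma adjusted p = 0.00585) and Cyp39a1, an oxysterol hydroxylase of bile acid synthesis, by 0.42 (SE 0.13, adjusted p = 0.0453). Cyp7b1, which hydroxylates oxysterols and dehydroepiandrosterone, fell to 9.88 ± 0.55 in switched livers, against 11.59 ± 0.39 at 6 months (SD, n = 8 and 6, difference −1.69, SE 0.24, limma adjusted p = 0.000107). Cyp2d9, a male-biased testosterone hydroxylase, fell to 10.71 ± 0.28 in switched livers, against 11.22 ± 0.19 in lifelong livers at 24 months (SD, n = 8 and 7, difference −0.54, SE 0.09, limma adjusted p = 0.0341). It was one of 7 probe sets that passed in that comparison. Both fell in 24 against 6 months too, Cyp2d9 by 0.43 (adjusted p = 0.0122) and Cyp7b1 by 0.93 (adjusted p = 0.0330, limma).

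On the glucocorticoid side, beside Hsd11b1, 10 genes were measured. Tsc22d3 and Tat, known targets of the glucocorticoid receptor, fell by 0.71 (SE 0.17, limma adjusted p = 0.0180) and 0.42 (SE 0.12, adjusted p = 0.0355) in 24 against 6 months. In switched against 6-month livers they fell by 0.73 (SE 0.17, adjusted p = 0.00569) and 0.49 (SE 0.11, adjusted p = 0.00615), and Serpina6, which encodes the corticosteroid carrier of plasma, rose by 0.22 (SE 0.07, adjusted p = 0.0352). Both contrasts use the same 6-month livers. Fkbp5, Per1 and Sgk1, also on this list, passed in neither contrast. Of the 10 differences, 5 were positive in 24 against 6 months and 4 in switched against 6-month livers. None of the 10 passed in the other 3 comparisons. Of 8 steroid and related receptor genes, 0 passed in any comparison by limma, with 1 at an unadjusted p under 0.05, in 12 against 6 months. Among 16 genes of the growth hormone axis and of sex-biased transcription, 2 rose and 4 fell in switched against 6-month livers and none passed elsewhere. Bcl6, a repressor with more RNA in male liver, fell by 1.60 (SE 0.35, adjusted p = 0.00384), Foxa1 by 0.47 (SE 0.12, adjusted p = 0.0113) and Cebpb by 0.42 (SE 0.10, adjusted p = 0.00698), while Jak2, the kinase of the growth hormone receptor, rose by 0.28 (SE 0.07, adjusted p = 0.00832).

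Genes known for a male bias in mouse liver, other than the 7, were read beside Hsd3b5. This list and the female-biased one were drawn up with earlier results of these data known. Their counts and medians are therefore a description and no separate support. Of 20 measured, 18 fell and 0 rose in switched against 6-month livers, with a median difference of −1.02 beside −0.03 over all probe sets. In 24 against 6 months 9 fell and 0 rose (median −0.44), in switched against lifelong livers at 24 months 2 fell and 0 rose (median −0.53), and none passed in 12 against 6 or 24 against 12 months. The 2 that fell between the 24-month groups were Cyp2d9 and Susd4, a complement regulator, which fell by 1.24 (SE 0.21, limma adjusted p = 0.0341). Of 16 female-biased genes, 10 rose and 0 fell in switched against 6-month livers (median 0.68), 2 rose in switched against lifelong livers at 24 months (median 0.57), 1, Cyp2b9, rose in 24 against 6 months by 3.22 (SE 0.74, adjusted p = 0.0129, list median 0.16) and none passed in the other 2 comparisons. The 2 were Cyp2b13, with 3.26 (SE 0.37, limma adjusted p = 0.000118), and Hao2, with 1.80 (SE 0.27, adjusted p = 0.00940). Cyp2d9 and Cyp7b1 are on the hydroxylase list as well, and Cyp39a1 is on both that list and the female-biased one.

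**Figure D4:**
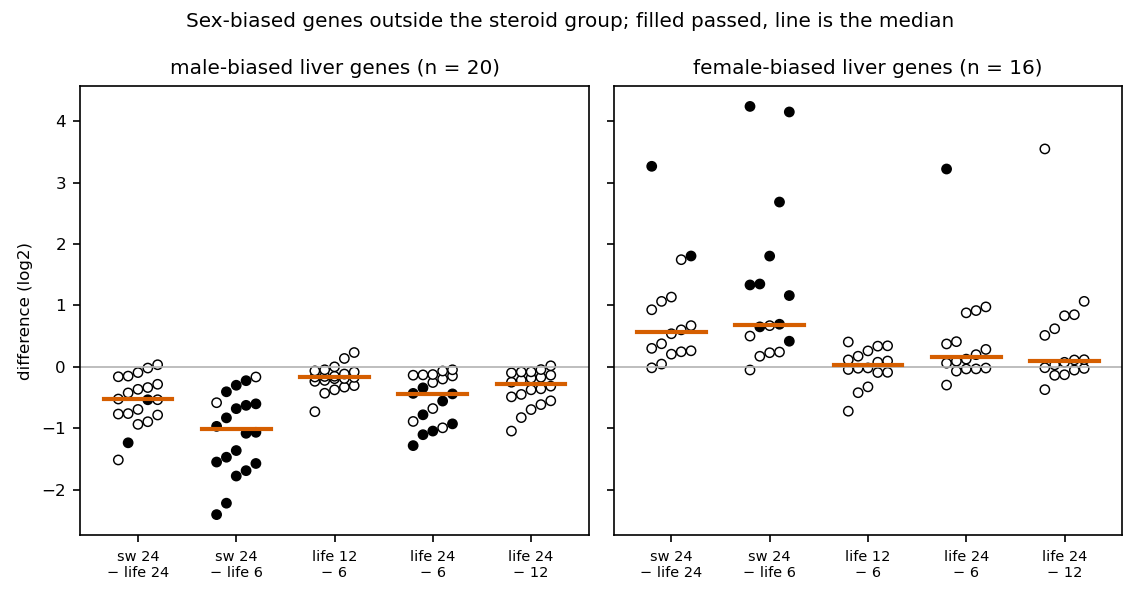
Differences on the log2 scale (y axis) of 20 male-biased and 16 female-biased genes outside the 7 in the 5 comparisons (x axis; sw, switched; life, lifelong; ages in months). Each point is a gene, filled where it passed, and the line is the median. The median of the male-biased genes was −1.02 in switched against 6-month livers and −0.53 in switched against lifelong livers at 24 months.

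The genes most like Hsd3b5 over the 28 livers, by Pearson's r after removal of batch means, were Slco1a1 (0.97), C8b (0.93), Adgrf1 (0.92), Susd4 (0.92) and Cyp7b1 (0.91). The most opposed were Chil1 (−0.94), Cidea (−0.92), Gprc5b (−0.91), Rsph4a (−0.91) and Cd36 (−0.91). These r describe livers that share groups, and no p is given. The same livers stood apart in several of these genes. The genes were picked by r over those livers, so this describes the choice and is no separate result. Slco1a1, an organic anion and steroid conjugate transporter, had 8.26 in lifelong replicate 1 at 24 months and 10.61 to 11.24 in the other 6. Within groups, batch means were left in. There the r of Slco1a1 with Hsd3b5 was 0.95 in switched livers, 0.44 at 6 months, 0.46 at 12 months and 0.98 at 24 months. In the switched group, replicates 3 and 7, highest in Hsd3b5 at 9.22 and 7.72, were also highest in Slco1a1, at 10.75 and 9.81, and in Cyp7b1, at 10.76 and 10.72. Cidea, a lipid droplet protein, averaged 7.56 ± 1.56 in switched livers, 3.92 ± 0.25 at 6 months, 4.14 ± 0.27 at 12 months and 5.12 ± 1.74 at 24 months (SD). Cd36, a fatty acid transporter, averaged 11.07 ± 0.42, 9.01 ± 0.20, 9.27 ± 0.52 and 10.13 ± 0.66 in the same order. Hsd3b3, the relative of Hsd3b5, had r of 0.50 with it over the 28 livers. With batch means left in, r was 0.63 in switched livers, 0.93 at 6 months, 0.88 at 12 months and 0.12 at 24 months.

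With the same kinds of gene passed over, Tcn2, which encodes the cobalamin carrier transcobalamin, was most like Cyp17a1 (0.91). Mmd2 (0.90), Scand1 (0.89), Acnat2 (0.89) and Slc22a27 (0.88) came next, and none of these genes is among those of Hsd3b5. The most opposed were Tmem30a (−0.88), Simc1 (−0.87), Ugt2b38 (−0.86), Ces4a (−0.85) and Gstp1 (−0.85). Slc22a27 averaged 8.12 ± 0.38 in switched livers, 4.53 ± 0.59 at 6 months, 5.87 ± 0.69 at 12 months and 6.74 ± 0.87 at 24 months (SD). Within groups, with batch means left in, the likeness was uneven. The r of Cyp17a1 with Tcn2 was 0.58 in switched livers, −0.15 at 6 months, 0.66 at 12 months and 0.81 at 24 months. Ugt2b38 and Gstp1, male-biased enzymes of conjugation, are on the list described above. Ugt2b38 averaged 8.62 ± 0.24 in switched livers, 9.68 ± 0.16 at 6 months, 9.25 ± 0.17 at 12 months and 8.63 ± 0.28 at 24 months (SD).

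Some markers of other cell types also differed from 6-month livers. Of 7 markers of B and plasma cells, 6 rose in 24 against 6 months and 5 in switched against 6-month livers, and their mean level ran from 5.52 to 6.92 in switched livers, 4.85 to 5.18 at 6 months, 5.01 to 5.85 at 12 months and 5.44 to 6.86 at 24 months. Of 7 stellate cell markers 3 rose in switched against 6-month livers (mean level 7.28 to 7.65 against 7.12 to 7.37), and of 8 macrophage markers 1 rose (8.04 to 10.23 against 8.13 to 8.69). In 24 against 6 months 0 of 7 stellate cell markers passed by limma (4 had an unadjusted p under 0.05) and 1 of 8 macrophage markers rose. Of 7 B and plasma cell, 7 stellate cell and 8 macrophage markers, none passed in switched against lifelong livers at 24 months. The part of these cells in the enzyme differences was not tested.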

How the data were processed

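The authors summarised single-colour whole-transcript arrays of 28 mouse livers with RMA, per the submitters' processing notes, and the deposited values are log2 expression, used as deposited. The RMA version and the handling of arrays in 1 or more runs are not given in the sources used here. Array batches (G150, G151 and G152) were read from the array names; G150 held 6 switched livers and 4 of each lifelong group, and G151 and G152 held 1 or 2 of every group. The number of arrays limits the precision. Array medians lay between 5.23 and 5.31, and no detection call was made.

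Of 35556 probe sets, 21218 name 1 gene, 1881 several and 12457 none in the platform annotation. The brightest 1-gene probe set stood for a gene, and symbols, positions and upstream sequence are RefSeq's, GRCm38.p6. All 28 arrays entered 1 model in limma 3.58.1 (R 4.3.3) with group and batch, followed by empirical Bayes moderation, tested two-sided with Benjamini-Hochberg adjustment over all probe sets of a comparison at 0.05. The procedure was tested on simulated data with the same spread in all groups of a probe set. That test does not cover unequal spreads such as those of Hsd3b5. SE is the moderated standard error. Counts and figures used Python 3.11.15, pandas 2.3.3 and matplotlib 3.10.9. Each mouse had its own array, and p-values measure the spread between mice.

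The members, gene lists, tests and alternatives were chosen with earlier results of these data known. Genes outside the 7 were named where they passed, up to 4 of a list with the smallest p, at most 2 where none passed, and the 5 most and 5 least like Cyp17a1 and Hsd3b5. Lists for endothelial cells and cholangiocytes gave 0 calls in every comparison. Replicate numbers did not pair the livers. Alternatives were other batch handling, subsets of arrays, a filter on dim probe sets, repeated quantile normalisation, centring, other variance settings, array weights, a replicate block, other probe set rules and leaving out each liver.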

Additional observations from a re-analysis of the deposited data

Results flagged for a closer look

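Of 24 combinations of a gene and a group, 1 held a liver far from the others of its group. It was Hsd3b5 in lifelong replicate 1 at 24 months, with 3.44 on the log2 scale, and the gap to the next liver was 0.727 of the group's whole range. A comparison of this kind picks out about 1 in 20 groups by chance. The same liver had 8.26 of Slco1a1 and 8.35 of Susd4, the lowest of its group in both. Both genes are among those most like Hsd3b5 by r over these livers, this one included, so their low values are no separate evidence.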

How the results depend on the processing

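The count of the 6 genes that passed in 12 against 6 months (1 as reported) was 0 in batch G150 alone, in batches G151 and G152 alone and with only the groups compared, and 2 with array weights and with 1-gene probe sets only. In 24 against 6 months (1 as reported) it was 0 in batches G151 and G152 alone. In switched against 6-month livers (5 as reported) it was 2 in batch G150 alone, 0 in batches G151 and G152 alone and 3 with only the groups compared. These subsets hold fewer arrays. Leaving out each liver in turn gave 0 to 2 in 12 against 6 months, 1 to 2 in 24 against 6 months, 0 in 24 against 12 months, 0 to 1 in switched against lifelong livers at 24 months and 3 to 5 in switched against 6-month livers. The count of 3 came without replicate 2, 3 or 4 at 6 months or switched replicate 5. The other settings gave counts within 1.5 times those reported, and no gene that passed changed sign in any setting. Over the settings that kept every liver of a comparison or used a subset, probe sets that passed numbered 0 to 518 in 12 against 6 months (210 as reported), 3 to 2271 in 24 against 6 months (1681), 0 to 39 in 24 against 12 months (9), 0 to 10 in switched against lifelong livers at 24 months (7) and 4 to 4003 in switched against 6-month livers (3572). Of the probe sets that passed between the 24-month groups, 71.4% were higher in switched livers as reported, 55.6% with arrays centred on their median and 62.5% with repeated quantile normalisation, and over all settings the share ran from 50% with 1-gene probe sets only to 100% in either batch subset, without the arrays with an added suffix, with array weights and with the replicate block. With the replicate number as a block, 1, 1, 0, 0 and 4 of the 6 genes passed in 12 against 6, 24 against 6, 24 against 12 months, switched against lifelong at 24 months and switched against 6 months, and 122, 1334, 0, 2 and 2633 probe sets. Of 39 pairs of same-numbered livers, 4 had a correlation of their deviations above 0.1 (range −0.14 to 0.14). Of 254 pairs with different numbers, 26 did (range −0.32 to 0.19), so the numbers were taken as names.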
